A study of Mus musculus with 6 samples.

Results

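Neutrophil granule proteins are the antimicrobial proteins, proteases and adhesion proteins that neutrophils store in granules, and 10 of their genes were followed here: Camp, Ltf, Lcn2, Ngp, Mmp8, Mmp9, Elane, Mpo, Prtn3 and Cd177. The members were chosen by name, and a probe was taken as a member's when its RefSeq accession belonged to that gene. All 10 were on the array, by 12 of its 41174 probes, among 16535 genes with a symbol. Ltf and Mmp9 had 2 probes each. The samples were whole blood RNA from male mice of the inbred strain C57BL/6J, aged 9 weeks, put on 50% food restriction (FR; CE-2 chow) for 2 weeks or kept on the normal control diet, with 8 animals per diet. RNA of several animals was pooled within a diet, with numbers 1 to 8 in pool 1, numbers 1 to 4 in pool 2 and numbers 5 to 8 in pool 3. FR and control RNA of a pool were set against each other on 2-colour Agilent arrays, 2 per pool with opposite dyes, which makes 6 arrays. The series concerns adult and fetal undernutrition, and the adult diet is what these arrays compare.

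Neutrophils make their granules in a fixed order while they mature in the bone marrow. Azurophil granules come first and carry myeloperoxidase and serine proteases, specific granules follow with lactoferrin, lipocalin and the cathelicidin, and gelatinase granules come last. Transcription of the granule genes belongs to the marrow stages and is largely shut down in the mature neutrophils that circulate, so blood normally holds little of these mRNAs. Factors of the C/EBP family and PU.1 are known regulators of granule genes. In blood RNA, fewer cells of a type and less RNA per cell cannot be told apart.

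The 250 bases before the start of 5 members are printed because of how their probes behaved. Lcn2 was the tested member that passed, Camp and Ngp had ratios above 0 on all 6 arrays, and Prtn3 and Elane are neighbours on chromosome 10, with 0 protein-coding genes between them, of which the first was above background on every array and the second on none. The sequences are from the RefSeq promoter table (GRCm38.p6), 5′ to 3′ on the gene's strand, with capitals marking matches on either strand to 3 motifs. These were TTNNGNAA, a core of C/EBP sites, GAGGAA, a core bound by PU.1 and its relatives, and for the TATA box the letters TATAAA.

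Lcn2 (chr2:32387740-32387989, minus strand): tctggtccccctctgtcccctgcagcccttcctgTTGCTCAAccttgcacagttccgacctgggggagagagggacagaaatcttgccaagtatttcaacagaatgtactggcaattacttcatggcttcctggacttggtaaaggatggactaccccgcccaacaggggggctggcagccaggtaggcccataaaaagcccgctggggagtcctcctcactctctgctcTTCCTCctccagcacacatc

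Camp (chr9:109849457-109849706, minus strand): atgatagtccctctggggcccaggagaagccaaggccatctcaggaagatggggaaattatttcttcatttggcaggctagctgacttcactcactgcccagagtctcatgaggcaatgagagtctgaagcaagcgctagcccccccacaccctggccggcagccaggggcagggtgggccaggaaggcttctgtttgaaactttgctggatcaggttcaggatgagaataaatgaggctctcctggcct

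Ngp (chr9:110419558-110419807, plus strand): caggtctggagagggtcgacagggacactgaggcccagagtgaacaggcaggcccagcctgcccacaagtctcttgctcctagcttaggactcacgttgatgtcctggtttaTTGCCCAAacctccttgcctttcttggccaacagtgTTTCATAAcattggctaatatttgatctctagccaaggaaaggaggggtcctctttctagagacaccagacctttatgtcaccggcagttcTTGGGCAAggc

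Prtn3 (chr10:79879417-79879666, plus strand): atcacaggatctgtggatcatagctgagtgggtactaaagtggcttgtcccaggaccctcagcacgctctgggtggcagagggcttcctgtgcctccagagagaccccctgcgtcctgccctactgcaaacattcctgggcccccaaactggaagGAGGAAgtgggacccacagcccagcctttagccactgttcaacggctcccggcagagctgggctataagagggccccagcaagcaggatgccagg

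Elane (chr10:79886062-79886311, plus strand): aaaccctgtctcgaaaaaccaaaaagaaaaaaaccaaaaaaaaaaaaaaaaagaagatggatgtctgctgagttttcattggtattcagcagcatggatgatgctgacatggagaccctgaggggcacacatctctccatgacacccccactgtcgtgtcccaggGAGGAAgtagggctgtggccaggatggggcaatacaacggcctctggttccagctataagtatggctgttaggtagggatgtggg

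The table held such a window for 9 of the 10 members. Of these, 7 held GAGGAA, against 23.3% of all 32851 windows of this length, 5 held TTNNGNAA, against 36.8%, and 1, that of Cd177, held TATAAA, against 12.4%. No match overlapped a match to another of these motifs. Prtn3 and Elane each held 1 GAGGAA and no TTNNGNAA. Ngp held 3 TTNNGNAA and no GAGGAA, Lcn2 1 of each, and Camp none of the 3 motifs. These matches are a description of the windows, not of binding.

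The granule transcripts were dim in both diets. Agilent's flag for a spot well above background was set in FR and control on all 6 arrays for Prtn3, a serine protease of azurophil granules also known as myeloblastin, and for 1 of the 2 Mmp9 probes. The other Mmp9 probe was flagged on 4 arrays in FR and 6 in control. Elane, neutrophil elastase, was flagged on 0 of 6 arrays in FR and 0 of 6 in control. Lcn2, the siderophore-binding lipocalin 2, was flagged on 6 arrays in FR and 5 in control, and Camp, the cathelicidin antimicrobial peptide, on 4 in FR and 2 in control. Mpo, myeloperoxidase, was flagged on 4 arrays in FR and 5 in control, Mmp8, neutrophil collagenase, on 4 in each, and Ngp, the cathelin-related neutrophilic granule protein, on 2 in each. Cd177, a surface glycoprotein of neutrophils, was flagged on 3 in FR and 5 in control. The 2 probes of Ltf, the iron-binding lactoferrin, were flagged on 3 and 4 arrays in FR, against 5 and 6 in control. By a looser measure, a net signal above the 95th percentile of the 153 negative control spots of its array, all probes but that of Elane were above it on all 6 arrays in both diets. Elane was above it on 1 array in FR and 0 in control.

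**Figure D1:**
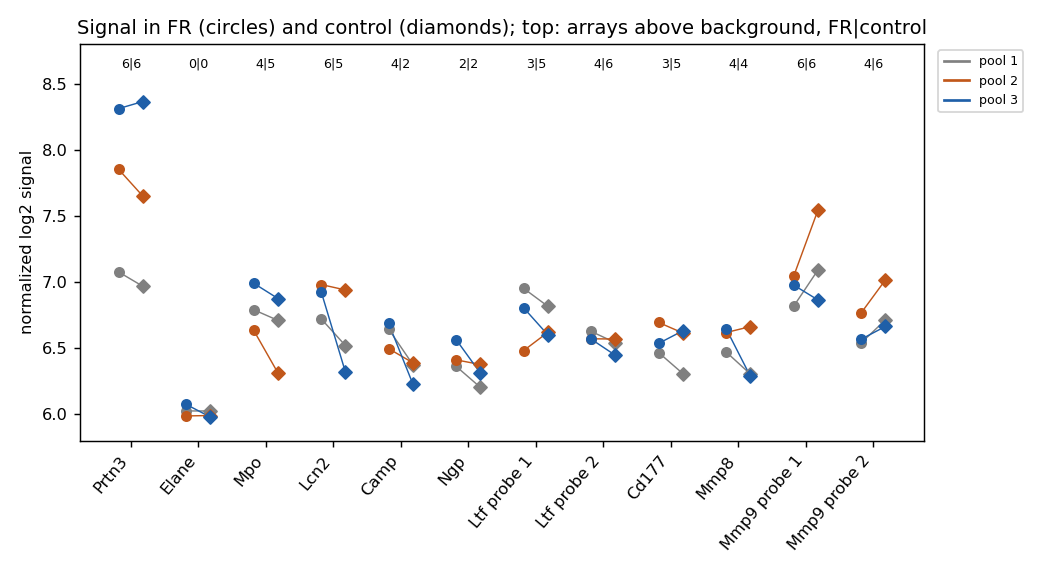
Normalized log2 signal of each granule protein probe (y axis) in FR (circles, left) and control (diamonds, right), joined within each pool, with the number of arrays above background on top as FR and then control. Probes are not to be set against each other in level; Prtn3 was above background on all 6 arrays in both diets and Elane on 0.

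A gene was tested if at least 1 diet was flagged above background on each of the 4 arrays that carry pools 2 and 3, which share no animal. The test was limma on the log2 ratio of FR over control, with the 2 arrays of a pool averaged, n = 2 pools, and Benjamini-Hochberg adjustment over all 11497 features tested at an adjusted p of 0.05. Pool 1 holds the same animals again, so its values are given as a repeat. Ltf, Lcn2, Mmp9, Prtn3 and Cd177 entered the test, and Camp, Ngp, Mmp8, Elane and Mpo did not. Of the 5 tested members, 1 was higher in FR (Lcn2), against 3.73% of all features tested, 0 were lower, against 24.5%, and 4 did not pass. Lcn2 was flagged on 4 of these 4 arrays in FR and 3 in control, so it was tested only through the diet where it was higher, and its call is no support for a rise of the group. With both diets required above background, it was not tested, and 0 of the 2 members tested were higher, against 6.17% of all features. Ltf and Cd177 entered through control, with 2 of 4 FR arrays flagged each. The 5 had a median log2 ratio of 0.06, against 0.01 for all features tested. In this fit, with its normexp background correction, no tested member fell by more than 0.19 on the log2 scale. That member was Mmp9, whose log2 ratio ranged between -0.44 and 0.05 over the 17 alternatives. For probes this dim the size of a ratio depends on the processing. It is therefore not to be set against the 2820 features that were lower. Prior variances were pooled so strongly with 2 pools that genes of like signal shared one variance, and the p-values therefore overstate the certainty for a single gene.

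Among the azurophil proteins, Prtn3 had the highest count of arrays above background. Its log2 signal in FR was 7.08, 7.85 and 8.31 in pools 1, 2 and 3, against 6.97, 7.65 and 8.36 in control. The signal moved by more between pools than between diets, and the order of the diets differed between pools. The log2 ratio of FR over control was 0.11, 0.20 and -0.05 in the 3 pools, and 0.07 ± 0.18 (SD, n = 2) over pools 2 and 3 (limma, adjusted p = 0.775, 95% interval -0.23 to 0.38).

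Elane and Mpo, the other azurophil members, were too dim to be tested with the filter. Elane's log2 signal was 6.02, 5.99 and 6.07 in FR, against 6.02, 5.99 and 5.98 in control, and these values lie at background, so its ratio carries no size. Mpo, which makes hypochlorous acid from hydrogen peroxide, had log2 signals of 6.79, 6.63 and 6.99 in FR, against 6.71, 6.31 and 6.87 in control. FR was the higher in each pool, but the ratio was above 0 on only 4 of the 6 arrays, and the 2 dye orientations of a pool differed by 0.39 on average. Without the filter, Mpo's log2 ratio was 0.22 ± 0.15 (SD, n = 2) and did not pass (limma, adjusted p = 0.218 over 33269 features).

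Lcn2, a specific granule protein that binds the iron carriers of bacteria, passed the test, which it entered through FR alone, the diet where it was higher. Its log2 signal was 6.72, 6.98 and 6.93 in FR of pools 1, 2 and 3, against 6.52, 6.94 and 6.32 in control. FR was higher in every pool, with pool 3 far apart from the other two and pool 2 nearly even. The log2 ratios were 0.20, 0.04 and 0.61, and their mean over pools 2 and 3 was 0.33 ± 0.40 (SD, n = 2), or 1.25-fold (limma, adjusted p = 0.0329, 95% interval 0.08 to 0.57). The SD between pools was larger than the mean. The call was lost when pool 1 replaced pool 3, where the log2 ratio was 0.12 (adjusted p = 0.178), when it replaced pool 2 (0.41, adjusted p = 0.0876), when the prior degrees of freedom were taken from 3 pools (adjusted p = 0.253), and with no replicate block, which ignores the pairing on an array (adjusted p = 0.438). The size also rested on the background correction: with Agilent's processed signals the log2 ratio was 1.20 (limma, adjusted p = 0.00245).

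Camp and Ngp, both of cathelin-like structure and 8 protein-coding genes apart on chromosome 9, were the only members with ratios above 0 on all 6 arrays. The 6 arrays are dye swaps of 3 pools with shared animals, and the share of all features with this pattern was not counted. Camp's log2 signal was 6.64, 6.50 and 6.69 in FR, against 6.37, 6.39 and 6.23 in control, with FR the higher in each pool. Both diets were close to background, with FR flagged on 2 and control on 1 of the 4 arrays of pools 2 and 3, so the size of the difference is uncertain. Its log2 ratios were 0.27, 0.11 and 0.46 in pools 1, 2 and 3. Camp did not pass the filter. Without it, 0.28 ± 0.25 (SD, n = 2) passed (limma, adjusted p = 0.0354 over 33269 features), where 1.66% of features were higher and 9.99% lower, and the members higher in that fit were Lcn2 and Camp, with 0 lower. None of the 4 further settings tried without the filter kept Camp's call (adjusted p between 0.100 and 0.500), and its log2 ratio ranged there between 0.19 and 1.33.

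Ngp's log2 signal was 6.36, 6.41 and 6.56 in FR, against 6.20, 6.38 and 6.31 in control. FR was the higher in each pool, by log2 ratios of 0.16, 0.03 and 0.25, but the values of the diets overlapped between pools. The mean of 0.14 ± 0.16 (SD, n = 2) did not pass without the filter (limma, adjusted p = 0.470). Mmp8, which cleaves fibrillar collagen, had log2 signals of 6.47, 6.62 and 6.65 in FR, against 6.30, 6.66 and 6.29 in control. Its order differed between pools, the dye orientations differed by 0.53 on average, and its log2 ratio of 0.16 ± 0.29 (SD, n = 2) did not pass (limma, adjusted p = 0.439, without the filter).

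The 2 Ltf probes gave small ratios. The probe that entered the test had log2 signals of 6.63, 6.57 and 6.57 in FR, against 6.54, 6.57 and 6.44 in control, with log2 ratios of 0.08, 0.00 and 0.12. Its mean over pools 2 and 3 was 0.06 ± 0.09 (SD, n = 2; limma, adjusted p = 0.730). The other probe, which did not pass the filter, gave 0.14, -0.14 and 0.21, so only this probe was below 0 in pool 2. Cd177, known to pair with PRTN3 on the surface of human neutrophils, had log2 signals of 6.47, 6.69 and 6.54 in FR, against 6.31, 6.61 and 6.63 in control. It was higher in FR in pools 1 and 2 and lower in pool 3, and its mean log2 ratio was -0.01 ± 0.12 (SD, n = 2; limma, adjusted p = 0.969, 95% interval -0.23 to 0.21).

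Mmp9, gelatinase B of the gelatinase granules, was the member with the lowest ratios. By the probe that stood for the gene, its log2 signal was 6.82, 7.04 and 6.98 in FR, against 7.09, 7.54 and 6.86 in control. FR was lower in pools 1 and 2 and higher in pool 3, with log2 ratios of -0.27, -0.50 and 0.11. The mean of -0.19 ± 0.43 (SD, n = 2) did not pass (limma, adjusted p = 0.363), and the 2 dye orientations differed by 0.47 on average. The other Mmp9 probe, which the array carries in 10 copies, gave -0.17, -0.25 and -0.10 in pools 1, 2 and 3. Its ratio was below 0 on all 6 arrays, between -0.27 and -0.06, with an SD between copies of 0.07 to 0.14 on an array. The brighter probe's decrease passed when pool 1 replaced pool 3 (log2 ratio -0.39, limma adjusted p = 2.52e-05) and with slide as a block over 6 arrays (-0.21, adjusted p = 0.0185). It also passed with median centring (-0.43, adjusted p = 0.00388), under which the median of all features tested was -0.18. These settings called 37.1%, 38.7% and 35.7% of all features lower, and the slide fit counts the 6 arrays as replicates although they are dye swaps of 3 pools with shared animals.

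**Figure D2:**
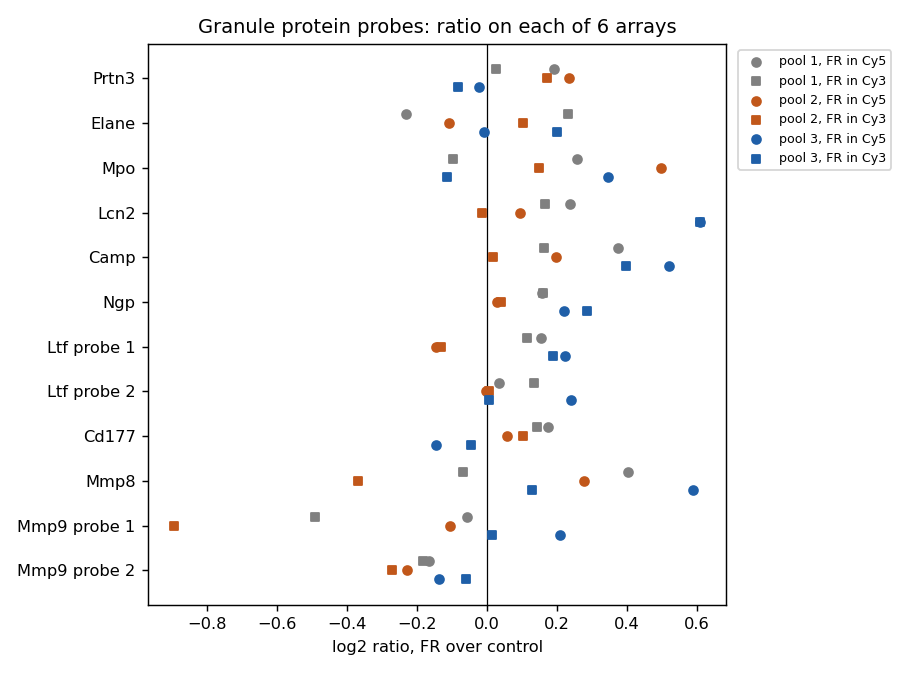
Log2 ratio of FR over control (x axis) on each of the 6 arrays for each granule protein probe (y axis), coloured by pool, with circles for FR in Cy5 and squares for FR in Cy3. Camp and Ngp lie above 0 on all 6 arrays, Mmp9's repeated probe (probe 2) below 0 on all 6, and Lcn2 reaches 0.61 in pool 3 only.

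Over all 10 members, with Ltf by the brighter of its probes, the median log2 ratio was 0.15 in pool 1, 0.04 in pool 2 and 0.16 in pool 3. In 7 of the 10 the ratio was higher in pool 3 than in pool 2, against 53.4% of all features without the filter, and the 10 include Elane, which lay at background. With median centring, under which the median of all features tested was -0.18, the log2 ratios of Prtn3, Ltf and Cd177 were -0.19, -0.05 and -0.13.

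Of 80 further neutrophil genes on the array, in 6 lists, 55 were tested: 1 was higher in FR, 23 were lower and 31 did not pass. Their decreases lay between -0.33 and -3.23 on the log2 scale (limma, largest adjusted p 0.0341). The 55 tested genes had a median log2 ratio of -0.29, and the 23 of 55 that were lower stand beside 24.5% of all features. With no replicate block 9 were lower, where 8.56% of all features were, and with prior degrees of freedom from 3 pools 14, where 15.5% were. When pool 1 replaced pool 2 it was 15, beside 17.8% of all features, and when it replaced pool 3 it was 35, beside 37.1%. No test was run on the difference between these lists and the 10 members.

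Of the further genes of azurophil granules, their processing and storage, 3 of 7 tested were lower and 0 higher. Of all features tested, 24.5% were lower and 3.73% higher. Srgn, serglycin, the proteoglycan on which granule proteases are stored, had log2 ratios of -1.69, -1.54 and -1.86 in pools 1, 2 and 3, a mean of -1.70 ± 0.23 (SD, n = 2). Serpinb1a, a cytosolic inhibitor of neutrophil serine proteases, gave -1.64 ± 0.52. Ctsc, cathepsin C, which activates these proteases, had 0 of 4 FR arrays above background, so its difference has only a bound. Its mean log2 signal was 6.44 in FR, not well above background, against 7.51 in control, at least 2.09-fold lower in FR, where the bound is the measured ratio since its FR signal lay above the lowest flagged signal of each array. Ctsg, cathepsin G, a protease of the same granules as Elane, had 0.21, 0.20 and 0.00 and did not pass, nor did Gusb, a lysosomal glucuronidase, at 0.05.

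Of the further specific, gelatinase and secretory granule genes, 8 of 17 tested were lower and 0 higher, beside 24.5% and 3.73% of all features. Lyz2, lysozyme, had log2 ratios of -3.18, -3.73 and -2.74 in the 3 pools, Ceacam1, an adhesion molecule, -1.53 ± 0.03 over pools 2 and 3, and Itgb2, the integrin beta chain CD18, -1.11 ± 0.18. Cybb, the catalytic chain of the phagocyte oxidase, gave -0.84 ± 0.68 and was above background in FR on 2 of 4 arrays. Chil3, a chitinase-like protein, and Retnlg, a resistin-like protein, did not pass: Chil3 had -0.62 in pool 2 and 0.48 in pool 3, and Retnlg -0.42 and 0.70, so both changed sign between the pools. In this list 16 of 17 genes had a higher ratio in pool 3 than in pool 2, against 53.9% of all features tested.

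S100a8 and S100a9, the calprotectin subunits that fill the neutrophil cytosol, were lower, at -0.65 ± 0.74 and -0.73 ± 0.77 (SD, n = 2). S100a8 gave -0.90, -1.17 and -0.13 in pools 1, 2 and 3, and S100a9 -0.94, -1.27 and -0.19, so most of both decreases lay in pool 2. Stfa2l1, a stefin that inhibits cysteine proteases, was the 1 gene of these lists that was higher, at 0.78, 0.36 and 1.29 in the 3 pools, and like Lcn2 it was highest in pool 3. Stfa3 and Padi4, which citrullinates histones, did not pass, at -0.03 and -0.29. In the cytosolic list, 2 of 5 tested genes were lower and 1 higher, beside 24.5% and 3.73% of all features.

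**Figure D3:**
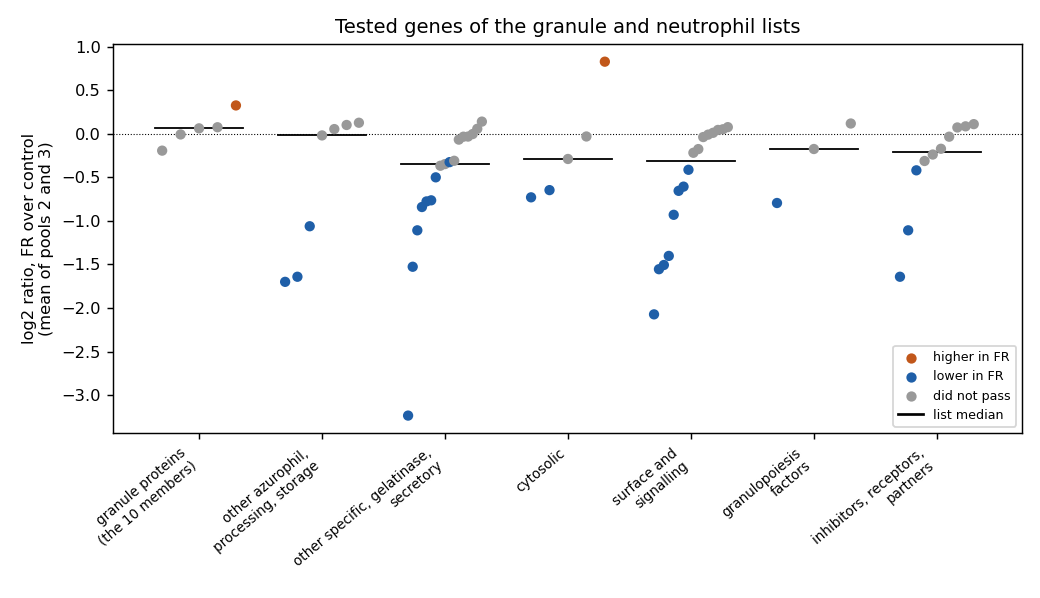
Log2 ratio of FR over control, mean of pools 2 and 3 (y axis), for each tested gene of the granule proteins and of 6 further neutrophil lists (x axis), coloured by whether it passed the test, with the list median as a line. With the normexp correction the 5 tested members, which are mostly dim, lie between -0.19 and 0.33, and these sizes depend on the processing. Of the other 55 genes, 23 were lower.

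Among surface and signalling genes 8 of 16 tested were lower and 0 higher, beside 24.5% and 3.73% of all features. Ncf4, an oxidase subunit, gave -1.55 ± 0.96, Clec4d, a lectin receptor, -1.51 ± 0.03 and Pirb, an inhibitory receptor, -1.40 ± 0.93 (SD, n = 2). Mxd1 and Csf2rb, at 0.01 and 0.04, did not pass. Of the factors of granulopoiesis, 1 of 3 tested was lower, also beside 24.5% of all features. It was Cebpd at -0.79 ± 0.20, while Cebpb at 0.12 and Ikzf1 at -0.18 did not pass. Of the inhibitors, receptors and partners of the members, 3 of 10 tested were lower, near the 24.5% of all features. These were Serpinb1a and Itgb2, given above, and Timp1, an inhibitor of metalloproteinases such as MMP9, at -0.42 ± 0.09. Slpi, a secreted inhibitor of elastase, had -0.59 in pool 2 and 0.11 in pool 3, and Slc22a17, a receptor for LCN2, 0.11 ± 0.10. Neither passed.

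**Figure D4:**
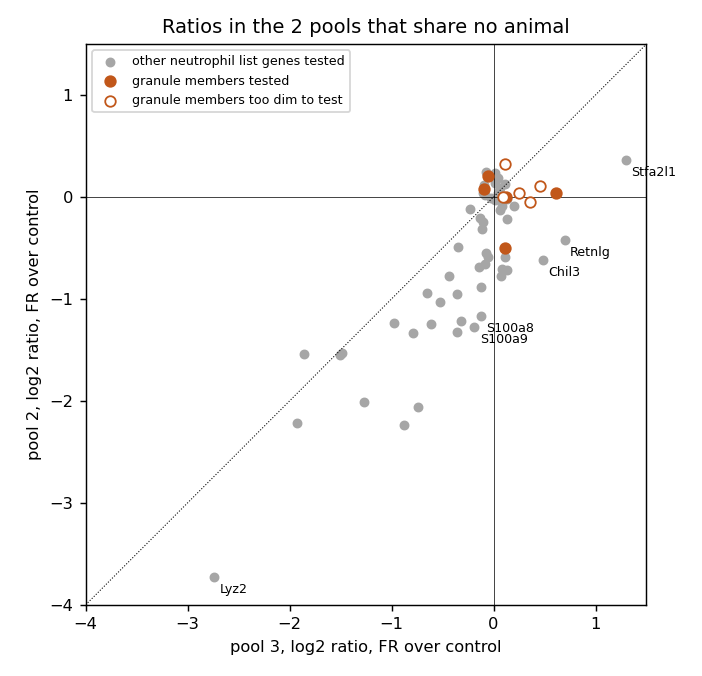
Log2 ratio of FR over control in pool 3 (x axis) against pool 2 (y axis) for the tested genes of the 6 further neutrophil lists (grey) and for the members (orange, open where too dim to test). Points below the dotted line of equality have the higher ratio in pool 3, as do 41 of the 55 grey points. With normexp at an offset of 50, the members lie near 0, with Lcn2 (0.61 in pool 3, 0.04 in pool 2) and Mmp9 (0.11 and -0.50) farthest out.

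Many of the lower neutrophil genes, such as Lyz2, Itgb2 and Cybb, are also made by monocytes. Beside the 24.5% of all features that were lower, the monocyte markers fell in 5 of 5 tested genes, with a median log2 ratio of -1.10. Their summed signal over the pools was 902 to 1119 in FR and 3584 to 6213 in control. Ctss and F13a1 were at -3.48 ± 0.88 and -1.45 ± 0.05 (SD, n = 2). The B cell markers fell in 5 of 6, with Cd79b at -4.48 ± 0.27, the T cell markers in 3 of 5, with Cd3d at -1.89 ± 0.25, and the platelet markers in 6 of 8, with Ppbp at -2.67 ± 0.55. Of the 6 tested red cell markers, Tfrc was higher, at 0.68 ± 0.41, and the summed signal was 344741 to 402143 in FR and 323291 to 382149 in control. Of 4 tested eosinophil and basophil markers, 1 was lower (Gata2, -0.33 ± 0.07), and of the 3 tested markers of cardiac muscle, included because the blood was drawn from the heart, 0 passed, with Tnni3 at 0.17. The part of other blood cells in the lower neutrophil genes was not tested. The summed signal of the 5 tested granule members was 540 to 753 in FR and 525 to 712 in control. These sums include a floor, since Elane, which lay at background, still had log2 signals of 6.02, 5.99 and 6.07 in FR. Prtn3 was the brightest of the 5, with 8.31 in FR and 8.36 in control in pool 3. The like sums therefore cannot show whether granule RNA was unchanged.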

How the data were processed

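Blood RNA of FR and control mice was hybridised on 6 two-colour arrays. A column kit gave the RNA, which was labelled after linear amplification, per the labels' protocols. The scanner files the authors deposited hold intensity values per spot (Agilent Feature Extraction 11.0.1.1, according to the submitters' processing notes), and their deposited series table holds log10 ratios of red over green processed signal, not centred and not turned for dye. Its column medians lay between -0.0277 and 0.0520.

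Here median signals were background-corrected by normexp (offset 50) and normalized by loess within arrays, with control spots at weight 0. Outlier-flagged spots were left out, spots of a probe averaged, ratios turned to FR over control and the 2 arrays of a pool averaged. Log2 signals per diet followed Aquantile normalization. Loess centres the bulk of spots on 0, so each ratio is relative to the other transcripts. Of 41174 probes, 23374 were named through RefSeq accessions (GRCm38.p6), used for names and neighbours since the array is annotated on an older build. The brightest probe that passed the filter stood for its gene, and unnamed probes of 1 identifier were collapsed likewise. Tests were two-sided and used lmFit and eBayes (with trend) of limma 3.58.1 under R 4.3.3 on pools 2 and 3. The procedure was tested on simulated data. The simulation gave features of like signal the same SD, as the fit does, so it cannot show how far single-gene certainty is overstated. The pairing is given by the array, and n is the 2 pools of animals. In the fit on pools 2 and 3, the p-values rest on a variance shared by features of like signal. They do not measure each gene's own spread between the pools. FR was above background for 20.4% to 55.6% of probe spots per array and control for 37.2% to 62.1%, no spot was saturated, and the number of arrays limits the precision. Each array carries both diets, so diet and slide are not confounded: pool 1 was on 1 slide and pools 2 and 3 on the other.

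Every probe of a member is named, and of each other list the up to 4 tested genes with the largest change among those that passed and the up to 2 brightest that did not, and 2 per marker list. A few genes that this rule takes are not reported here. Where no FR array of the 4 showed a gene above background, a bound was sought. FR was set on each array at the higher of its own signal and the lowest signal well above background. For Ctsc its own signal was the higher, so its fold is the measured ratio and not a bound. The members and lists were chosen with earlier results of these data known. The RefSeq protein sequences planned for the members were not used here. Alternatives covered background correction, centring, the filter, the variance model, pools, dyes, pairing, slide and probe choice, 17 in all.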

Additional observations from a re-analysis of the deposited data

How the results depend on the processing

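The count of granule members higher in FR, 1, was 0 with no background subtraction, median centring, both diets above background, eBayes without trend, prior degrees of freedom from 3 pools, all 3 pools as replicates, FR in Cy3 alone and no replicate block. It was 2 without the dim filter and 0 with either of pools 2 and 3 replaced by pool 1. The count lower, 0, was 1 (Mmp9) with median centring and with slide as a block, and 0 to 1 with a pool replaced. Of the other neutrophil list genes, 23 lower became 15 with both diets above background, 14 with prior degrees of freedom from 3 pools and 9 with no replicate block, where the paired arrays are treated as unpaired, and 15 to 35 with a pool replaced. The 1 higher became 3 without the filter, 0 with that prior and with no replicate block, 4 with slide as a block and 2 to 5 with a pool replaced, beside 30.8% of all features higher with slide as a block, and 3.32% and 15.6% with pool 1 for pool 2 and for pool 3, against 3.73%. The lower counts under the stricter filter come with fewer genes tested. The cause of the other changes was not tested.

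Lcn2 kept a ratio above 0 in all 16 alternatives, between 0.12 and 1.20, and its call in 7. The 4 settings that combine no dim filter with another choice, for Camp, Ngp, Mmp8, Elane and Mpo, were added after seeing the data. With dim probes, signal over background limits the size of each ratio. With Agilent's processed signals and no dim filter, Camp, Mmp8, Mpo, Ngp and Elane had log2 ratios of 1.33, 0.70, 0.53, 0.51 and 0.12. None of them passed in that setting. The median distance between the dye orientations was 0.20 over all features tested and 0.10 over the tested members.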
